A study of Rattus norvegicus with 20 samples.

Results

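The genes described here store and release calcium in muscle cells: the calcium pumps Atp2a1 and Atp2a2, the pump inhibitor Pln, the storage proteins Casq1 and Casq2, the buffer Pvalb, and the channels Ryr1 and Cacna1s. They were chosen by name, and every probe set (a set of array oligonucleotides reporting 1 transcript) was taken whose only symbol in the platform annotation was 1 of these 8. That gave 11 probe sets for 7 genes, among 4736 genes with a probe set of their own, and Ryr1 had none. Atp2a2 had 4 probe sets, Cacna1s had 2 and each other gene had 1.

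RNA was measured on 20 one-colour Affymetrix arrays, 1 per sample, from skeletal muscle of the rear leg of rats, in 4 groups of 5: diabetic rats given vanadyl sulfate, untreated diabetic rats, normal rats given vanadyl sulfate, and untreated normal rats. Treated means given vanadyl sulfate throughout. Vanadyl sulfate is a vanadium salt known for insulin-like effects in diabetic rodents. The sources used here do not give the strain and age of the rats, how diabetes came about, which muscle was sampled, or how much vanadyl sulfate was given and for how long. The labels do not say that the 5 samples of a group came from 5 animals, so p-values measure the spread between samples, which may be technical in part.

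A muscle fibre contracts when an action potential sets stored calcium free. The voltage sensor Cacna1s in the surface membrane triggers the release channel Ryr1, calcium leaves the sarcoplasmic reticulum, and pumps of the Atp2a family return it. Fast fibres use mainly Atp2a1, Casq1 and the soluble buffer Pvalb, while slow fibres and the heart use Atp2a2, and Casq2 and Pln are best known from the heart and slow muscle. Vanadate, a more oxidised form of vanadium than vanadyl, is a known inhibitor of pumps of this kind in the test tube.

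Of the 11 probe sets, 10 passed a filter on dim signals (5 or more of the 20 arrays with a value over their 40th percentile), and Pln did not. None of the 10 passed limma's test at an adjusted p of 0.05 in any of 6 comparisons, 5 between groups and the interaction (the effect of vanadyl sulfate in diabetic rats less its effect in normal ones). Over all 6027 tested probe sets, 0% to 1.83% passed in a comparison. The clearest differences lay between treated and untreated diabetic muscle. There 1 Atp2a2 probe set and Casq2 were lower in treated muscle with no overlap of the 2 groups. Of all tested probe sets, 4.45% did not overlap in that comparison. Of the 4 Atp2a2 probe sets, the brightest followed slow fibre contractile genes from array to array. Atp2a1 and Pvalb followed fast fibre genes on the deposited scale, but not after quantile normalization, which leaves the brightest signals little room to vary. Neither Casq1 nor Casq2 passed in its relation with slow or fast fibre genes.

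The labelled tissue was checked against skeletal muscle markers. Of 10 such genes, 8 had a probe set under the symbol searched, and none of these was at 0 on any array. Their summed signal ranged over 605885 to 1146835 in treated diabetic and 430636 to 707812 in untreated diabetic muscle. It ranged over 417119 to 608085 in treated normal and 422117 to 2021490 in untreated normal muscle. No immune, adipocyte or cardiac marker was at 0 on any array either, so the absence of 0 does not tell tissues apart. Pairs of arrays correlated between 0.683 and 0.968. RNA quality, judged by how far control probe sets at the 3' end outshone those at the 5' end (a log2 ratio), was uneven: for Gapdh, normal replicates 1 and 3 and treated diabetic replicate 1 had 2.90, 2.91 and 3.94, and the other 17 arrays lay at or below 1.31. For beta-actin the mean log2 ratio was 1.97 in treated diabetic, 1.75 in untreated diabetic, 1.07 in treated normal and 1.30 in untreated normal muscle. The ranges of these groups overlapped. In this bulk tissue, fewer cells of a type and less RNA per cell cannot be told apart.

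The gene starts of 4 members are shown because the results below turn on them: Atp2a1 and Pvalb varied with the fast fibre genes on the deposited scale, the brightest Atp2a2 probe set with the slow ones, and Casq2 did not overlap between the diabetic groups. RefSeq promoters, 250 bases before to 50 bases after the start, were matched for all 8 genes in build GRCr8. Capitals mark matches to 4 motifs searched on both strands. The E-box is spelled CANNTG. The MCAT element, known from muscle gene promoters, is spelled CATTCC. The TATA box was searched as TATAAA. The GC box was searched as GGGCGG, and no match overlapped a different motif.
Atp2a1 (chr1:190475361-190475660, minus strand): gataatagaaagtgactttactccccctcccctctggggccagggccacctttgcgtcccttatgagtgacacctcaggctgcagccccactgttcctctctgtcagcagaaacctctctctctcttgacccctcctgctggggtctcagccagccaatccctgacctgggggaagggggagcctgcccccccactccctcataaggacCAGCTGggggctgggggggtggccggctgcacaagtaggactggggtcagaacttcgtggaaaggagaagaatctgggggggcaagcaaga
Pvalb (chr7:111666240-111666539, minus strand): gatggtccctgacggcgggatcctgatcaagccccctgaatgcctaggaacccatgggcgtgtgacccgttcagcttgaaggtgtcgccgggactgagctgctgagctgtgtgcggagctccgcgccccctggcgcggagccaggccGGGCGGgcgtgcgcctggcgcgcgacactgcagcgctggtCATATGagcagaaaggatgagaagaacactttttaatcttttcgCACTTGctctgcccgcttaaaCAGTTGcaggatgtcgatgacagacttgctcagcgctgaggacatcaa
Atp2a2 (chr12:39733269-39733568, plus strand): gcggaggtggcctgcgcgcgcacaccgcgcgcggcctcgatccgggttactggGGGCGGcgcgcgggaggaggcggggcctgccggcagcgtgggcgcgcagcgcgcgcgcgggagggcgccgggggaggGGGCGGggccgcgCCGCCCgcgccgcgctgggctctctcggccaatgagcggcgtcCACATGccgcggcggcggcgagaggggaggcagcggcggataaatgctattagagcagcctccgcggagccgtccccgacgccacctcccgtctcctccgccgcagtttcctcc
Casq2 (chr2:192214306-192214605, plus strand): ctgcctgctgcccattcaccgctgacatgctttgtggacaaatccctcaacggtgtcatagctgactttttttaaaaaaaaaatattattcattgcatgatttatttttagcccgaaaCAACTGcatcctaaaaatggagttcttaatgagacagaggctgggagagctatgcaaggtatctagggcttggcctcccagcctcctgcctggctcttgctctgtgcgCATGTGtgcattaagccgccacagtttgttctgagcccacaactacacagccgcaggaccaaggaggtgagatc
Each of the 4 holds an E-box, a motif bound by muscle regulatory proteins such as MyoD: 1 in Atp2a1, 3 in Pvalb, 1 in Atp2a2 and 2 in Casq2. This is a common motif, found in 72.1% of all 33469 promoters of that length. A GC box was found 3 times in Atp2a2, once in Pvalb and not in the other pair, against 33.1% of all promoters. Neither an MCAT element nor a TATA box, each in 14.2% of all promoters, was found in these 4. Their GC content was 79.0% in Atp2a2, 61.0% in Atp2a1, 60.7% in Pvalb and 47.7% in Casq2, against a median of 51.7%. These matches describe the letters in the window only.

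Atp2a1, the calcium pump of fast fibres, was among the brightest transcripts, with a median rank at the 99.7th percentile of the array. Its signal was 147544, 103644, 157023, 115594 and 86440 in treated diabetic muscle, against 88795, 108635, 113066, 73363 and 86436 in untreated diabetic muscle. In treated normal muscle it was 83130, 82857, 75252, 93414 and 64652, against 77806, 75925, 300247, 121709 and 117125 in untreated normal muscle. All groups overlapped their neighbours, and untreated normal replicate 3 stood far above every other array. The log2 difference, on the log2(signal + 16) scale used throughout, was 0.36 ± 0.30 (SE) for treated against untreated diabetic and -0.37 ± 0.30 for diabetic against normal muscle, with adjusted p-values of 0.576 and 0.554 from limma. The interaction was 0.96 ± 0.43 (adjusted p = 0.337), and it was -0.063 under quantile normalization. Without untreated normal replicate 3, diabetic against normal muscle gave -0.044 ± 0.24 and the interaction 0.63 ± 0.33.

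**Figure D1:**
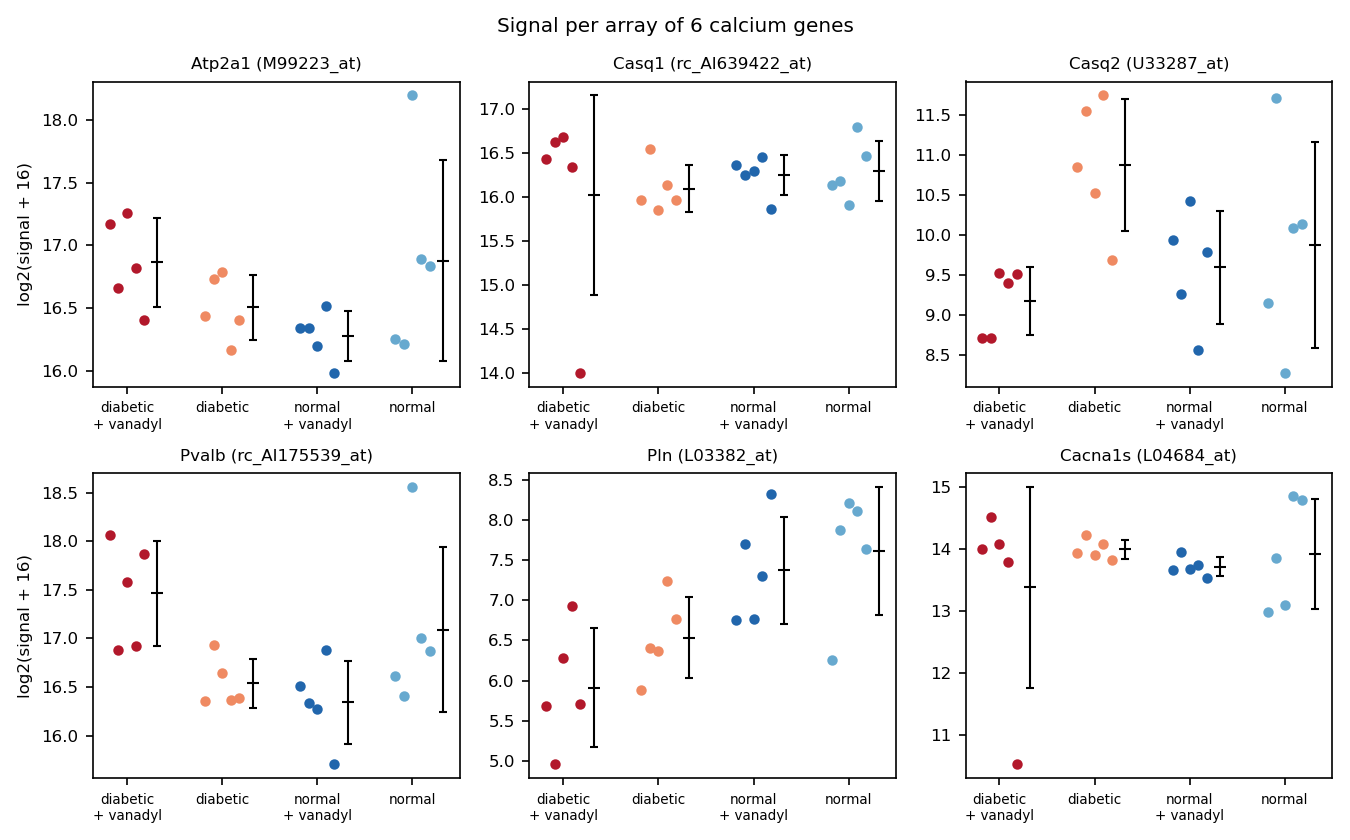
Signal of 6 genes on each of the 20 arrays, as log2(signal + 16) on the vertical axis, by group from left to right (treated diabetic, untreated diabetic, treated normal, untreated normal). Points are arrays, and bars show the mean ± SD of 5. Casq2 is lower on all 5 treated diabetic arrays, at 404 to 720, than on all 5 untreated diabetic arrays, at 811 to 3428, and single arrays stand apart for Atp2a1, Casq1, Pvalb and Cacna1s.

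Atp2a2, the pump of slow fibres and heart, was measured by 4 probe sets that did not give 1 answer. The brightest, AA799276_at, had signals of 35316, 8662, 31420, 18672 and 14495 in treated diabetic muscle, against 42456, 46654, 48812, 37490 and 19950 in untreated diabetic muscle. It had 47009, 16252, 31527, 14565 and 23810 in treated normal muscle, against 42889, 28756, 46479, 49702 and 24178 in untreated normal muscle. Within each pair the groups overlapped, and the 5 lowest arrays were in the 2 treated groups. The log2 difference was -0.96 ± 0.39 for treated against untreated diabetic muscle (adjusted p = 0.246) and -0.61 ± 0.39 for treated against untreated normal muscle (adjusted p = 0.622, limma). Between untreated diabetic and normal muscle it was 0.01 with a 95% interval of -0.81 to 0.84, and its sign turned under quantile normalization (-0.016). The group order of the mean was diabetic, normal, treated normal and treated diabetic, and no neighbours in it differed at the threshold.

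The second probe set, rc_AA957510_s_at, gave the smallest p of the 10 tested in any comparison. The suffix _s_at marks probe sets whose probes can match more than 1 transcript. It had 2393, 1593, 2101, 1791 and 2006 in treated diabetic muscle, against 5846, 4087, 4694, 4299 and 2980 in untreated diabetic muscle. These 2 groups did not overlap, and the treated mean was 2.18-fold lower (log2 difference -1.12 ± 0.27, 95% interval -1.69 to -0.56). The adjusted p from limma was 0.0709. It was 0.0392 with a larger pseudocount, 0.0473 with a trended and robust variance, 0.0375 without untreated normal replicate 3 and 0.0406 without untreated diabetic replicate 5, over a range of 0.0375 to 0.511 in all alternatives.

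In normal muscle the same probe set had 3898, 1953, 3131, 2053 and 2397 with treatment, against 2887, 1942, 1386, 3649 and 2438 without it. These groups overlapped (log2 difference 0.15 ± 0.27, adjusted p = 0.884). The interaction was -1.27 ± 0.38 (adjusted p = 0.157, limma), so a difference in the treatment effect between diabetic and normal rats did not pass. Untreated diabetic against normal muscle gave 0.87 ± 0.27 (adjusted p = 0.103), with 4 of the 5 diabetic arrays above the highest normal one.

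The other pair of Atp2a2 probe sets was dim, and their differences between untreated diabetic and normal muscle had opposite signs. J04024_at had 952, 569, 869, 851 and 558 in untreated diabetic muscle, against 333, 355, 71.9, 711 and 679 in normal muscle. The log2 difference was 1.09 ± 0.48 (adjusted p = 0.25, limma), the 2 groups overlapped, and normal replicate 3 was the lowest of all 20 arrays. Without it the difference was 0.58 ± 0.38 (adjusted p = 0.454). rc_AA800212_at had 223, 454, 467, 300.8 and 370 in untreated diabetic muscle, against 388, 516, 796, 904 and 667 in normal muscle, also overlapping, with a log2 difference of -0.81 ± 0.35 (adjusted p = 0.235). Treated against untreated diabetic muscle gave -0.61 ± 0.48 for J04024_at and 0.26 ± 0.35 for rc_AA800212_at.

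**Figure D2:**
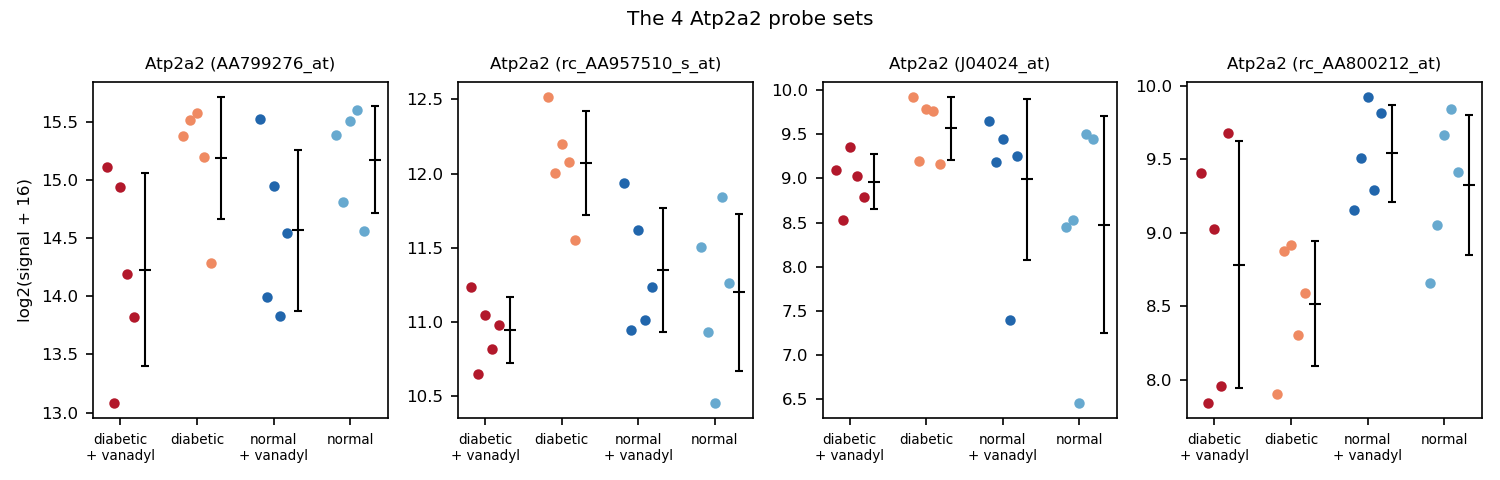
Signal of the 4 Atp2a2 probe sets on each array, as log2(signal + 16) on the vertical axis, with the groups from left to right as treated diabetic, untreated diabetic, treated normal and untreated normal. Points are arrays and bars the mean ± SD of 5, and for rc_AA957510_s_at all 5 treated diabetic arrays, at 1593 to 2393, lie under all 5 untreated diabetic arrays, at 2980 to 5846.

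Across the 20 arrays, rc_AA957510_s_at correlated with AA799276_at (Pearson r 0.62, Spearman rho 0.642, adjusted permutation p 0.0127 and 0.0101 over 7 pairs) and with J04024_at (r 0.702, rho 0.815, adjusted permutation p 0.00161 and 0.00028). Without the 2 arrays farthest from the median these r were 0.571 and 0.656. rc_AA800212_at gave r between -0.192 and 0.158 with the other 3, and none of these passed. Why the probe sets of 1 gene differ was not tested, since the probes' sequences were not used here.

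Pln, the small protein that restrains Atp2a2, was below the 40th percentile on 20 of 20 arrays and so was not tested with the others. Its signal was 35.4, 15.1, 62.1, 106 and 36.4 in treated diabetic muscle, 43.3, 68.6, 66.7, 135 and 93.4 in untreated diabetic muscle, 92.3, 192, 93.1, 142 and 305 in treated normal muscle, and 60.2, 219, 279, 261 and 183 in untreated normal muscle. The diabetic groups held the lower values and overlapped the normal ones. In a fit with no filter, the log2 difference was -1.08 ± 0.42 for untreated diabetic against normal muscle (adjusted p = 0.237) and -1.70 ± 0.42 for treated diabetic against untreated normal muscle (adjusted p = 0.345, limma). The second value was -1.90 (adjusted p = 0.0455) without the 3 arrays of high Gapdh ratio, which also left the beta-actin ratio of normal muscle apart from both diabetic groups' means, as given under Cacna1s. At such signals it is not known whether Pln was above background. Its correlation with the beta-actin 3' to 5' ratio was r -0.548 and rho -0.586 (adjusted permutation p 0.0736 and 0.0415), with r -0.482 without the 2 farthest arrays and -0.395 with group means removed. With the Gapdh ratio it was r -0.304 and rho -0.558 (adjusted permutation p 0.306 and 0.0486).

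Casq1, the main calcium-binding store of fast fibres, had 88332, 101120, 105254, 83112 and 16396 in treated diabetic muscle, against 64150, 95385, 59071, 72226 and 64161 in untreated diabetic muscle. It had 84325, 77566, 80622, 89560 and 59735 in treated normal muscle, against 71872, 74433, 61343, 113385 and 90407 in untreated normal muscle. Apart from treated diabetic replicate 5, all 19 arrays lay within 59071 to 113385. Every one of the 6 log2 differences lay between -0.28 and -0.03. Treated against untreated diabetic muscle gave -0.08 ± 0.38 (adjusted p = 0.94, limma), and 0.43 without treated diabetic replicate 5.

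Casq2, the calsequestrin of heart and slow muscle, had the largest difference between the diabetic groups among the 10 calcium gene probe sets tested. Its signal was 404, 406, 720, 661 and 717 in treated diabetic muscle, against 1833, 2996, 1462, 3428 and 811 in untreated diabetic muscle. The 2 groups did not overlap, and the treated mean was 3.25-fold lower (log2 difference -1.70 ± 0.51, 95% interval -2.77 to -0.63). The adjusted p from limma was 0.122, and it stayed at or above 0.0848 in every alternative run.

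In normal muscle Casq2 had 965, 597, 1362, 364 and 868 with treatment, against 552, 3361, 294, 1071 and 1115 without it. These groups overlapped, and untreated normal muscle held nearly the full range seen in the diabetic groups. Untreated diabetic against normal muscle gave a log2 difference of 1.00 ± 0.51 (adjusted p = 0.333). It was 0.60 ± 0.49 without untreated normal replicate 3 and 0.23 ± 0.50 once the 3 arrays with high Gapdh ratios were omitted. The interaction was -1.42 ± 0.73 (adjusted p = 0.412, limma).

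Some markers of other cells were called in the comparisons where Casq2 and rc_AA957510_s_at had their larger differences. Over all tested probe sets, 1.83% were called for diabetic against normal and 0.498% for treated against untreated diabetic muscle. Of 8 tested immune cell markers, 3 rose in untreated diabetic against normal muscle: Lyz2 (log2 difference 2.58), Fcgr2b (1.66) and Lgals3 (1.49). In treated against untreated diabetic muscle 2 fell, Lyz2 (-2.28) and Fcgr2b (-1.32). The list was not uniform: Cd4 (-0.53), Ptprc (-0.41) and Cd14 (-0.07) were negative for diabetic against normal muscle, and Cd4 (0.68) and Cd14 (0.03) positive for treated against untreated diabetic muscle, none of them called. The summed signal of the 10 immune markers with a probe set was 9577 to 16647 in treated diabetic, 17308 to 76797 in untreated diabetic, 11269 to 14546 in treated normal and 8644 to 13432 in untreated normal muscle. Of 5 tested adipocyte markers, Cidea (2.18), Fabp4 (1.86) and Lipe (1.09) rose in untreated diabetic against normal muscle, and Cidea (-2.29) fell with treatment in diabetic muscle. Lep had the other sign in both, at -0.33 and 0.23, and was not called. These marker genes were named after their values were seen. Their summed signal over 6 genes was 23036 to 34553 in treated diabetic, 32149 to 52729 in untreated diabetic, 19017 to 24718 in treated normal and 14987 to 26415 in untreated normal muscle. Of 8 cardiac markers, 7 were tested and none passed, with 4 positive and 3 negative for diabetic against normal muscle and 2 positive and 5 negative for treated against untreated diabetic muscle. Their summed signal was 8408 to 55654 in treated diabetic, 25328 to 67746 in untreated diabetic, 19706 to 42699 in treated normal and 31054 to 70162 in untreated normal muscle. This sum reports mainly Myh6, with a geometric mean signal of 27400 against 1930 for the next tested marker, Myl4. Myh6 was at 0.18 and -1.30 in the 2 comparisons, beside 0.22 and -1.12 for the slow myosin Myh7. No marker of these 3 lists was at 0 on any array, and their part in the calcium gene values was not tested.

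Pvalb, the soluble calcium buffer of fast fibres, ranked at the 99.9th percentile of the array. It had 274307, 120652, 195905, 124534 and 239221 in treated diabetic muscle, against 83953, 125304, 102168, 84608 and 85610 in untreated diabetic muscle. It had 93619, 82634, 79273, 120911 and 53333 in treated normal muscle, against 100475, 86682, 385906, 131481 and 119740 in untreated normal muscle. Of the 5 treated diabetic arrays, 3 lay above all the untreated diabetic ones, and the other 2 were inside their range. The log2 difference was 0.93 ± 0.35 (adjusted p = 0.221), 1.90-fold higher in treated diabetic muscle, and against treated normal muscle it was 1.12 ± 0.35 (adjusted p = 0.141, limma).

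In normal rats the treatment difference of Pvalb was -0.75 ± 0.35 (adjusted p = 0.534), and -0.38 ± 0.28 without untreated normal replicate 3. The interaction was 1.67 ± 0.50 (adjusted p = 0.153, limma), and 1.31 ± 0.39 without that array (adjusted p = 0.184). The 4 arrays with the highest Pvalb signal were also the 4 with the highest 99th percentile of all signals, in the same order, at 101790 for untreated normal replicate 3, then 99032, 91525 and 79725 for treated diabetic replicates 1, 5 and 3. Quantile normalization, which gives every array the same distribution, left Pvalb at 0.32 for treated against untreated diabetic and for treated diabetic against treated normal muscle, at -0.19 for treated against untreated normal muscle, and at 0.51 for the interaction (adjusted p = 0.442). Pvalb also correlated with the Gapdh 3' to 5' ratio (r 0.668, rho 0.606, adjusted permutation p 0.0194 and 0.0402), with r 0.294 without the 2 farthest arrays. Its 2 brightest arrays, treated diabetic replicate 1 and untreated normal replicate 3, had Gapdh ratios of 3.94 and 2.91, and the part of RNA quality in its values was not tested further.

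Cacna1s, the voltage sensor that opens the release channel, had 2 probe sets. L04684_at had 16464, 23326, 17301, 14203 and 1464 in treated diabetic muscle, against 15747, 19134, 15364, 17244 and 14539 in untreated diabetic muscle. It had 12958, 15870, 13109, 13731 and 11897 in treated normal muscle, against 8138, 14813, 8733, 29726 and 28202 in untreated normal muscle. Treated diabetic replicate 5 lay far below the other arrays of its group, and the same array was low for Casq1. The log2 difference was -0.61 ± 0.55 for treated against untreated diabetic muscle (adjusted p = 0.594, limma), and 0.10 without that array.

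The second probe set, U31816_s_at, spread over 228-fold. It had 400, 4391, 69.2, 258 and 183 in treated diabetic muscle, against 222, 1435, 180, 1705 and 157 in untreated diabetic muscle. It had 210, 5876, 5292, 1726 and 6494 in treated normal muscle, against 92.2, 15778, 76.6, 14107 and 9067 in untreated normal muscle. Each group held arrays at or below 400 and arrays at or above 1435. Its level followed the beta-actin 3' to 5' ratio: the 10 arrays with log2 ratios of 1.53 to 3.01 had signals of 69.2 to 400, and the 10 with ratios of 0.478 to 1.43 had 1435 to 15778. Across the 20 arrays r was -0.852 and rho -0.761 (adjusted permutation p 0.00044 and 0.00154 over 22 relations), with r -0.869 without the 2 farthest arrays and -0.818 with group means removed. It also followed the Gapdh ratio (r -0.64, rho -0.853, adjusted permutation p 0.0101 and 0.00022), with r -0.751 without the 2 farthest arrays.

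**Figure D3:**
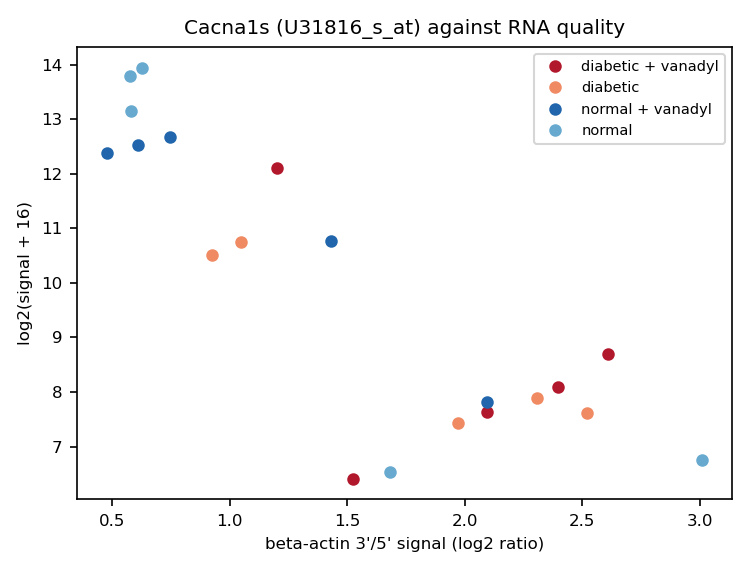
Signal of the Cacna1s probe set U31816_s_at, as log2(signal + 16), against the log2 ratio of 3' to 5' beta-actin control signal on the same array. Points are the 20 arrays, coloured by group. Arrays with ratios of 1.53 or more lie at or below a signal of 400, and those with ratios of 1.43 or less at or above 1435.

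The log2 difference of U31816_s_at between untreated diabetic and normal muscle was -1.99 ± 1.46 (adjusted p = 0.504, limma). Without the 3 arrays of high Gapdh ratio it was -4.79 (adjusted p = 0.0274), and treated diabetic against untreated normal muscle was then -5.06 (adjusted p = 0.0335). In that subset the mean beta-actin log2 ratio was 1.80 in treated diabetic and 1.75 in untreated diabetic muscle, against 0.59 in untreated normal muscle. RNA quality and group cannot be told apart there. Over all 20 arrays these means were 1.97, 1.75 and 1.30, with overlapping ranges, so the same caution holds for the -1.99. The 2 Cacna1s probe sets correlated at r 0.443 and rho 0.392 (adjusted permutation p 0.064 and 0.156).

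**Figure D4:**
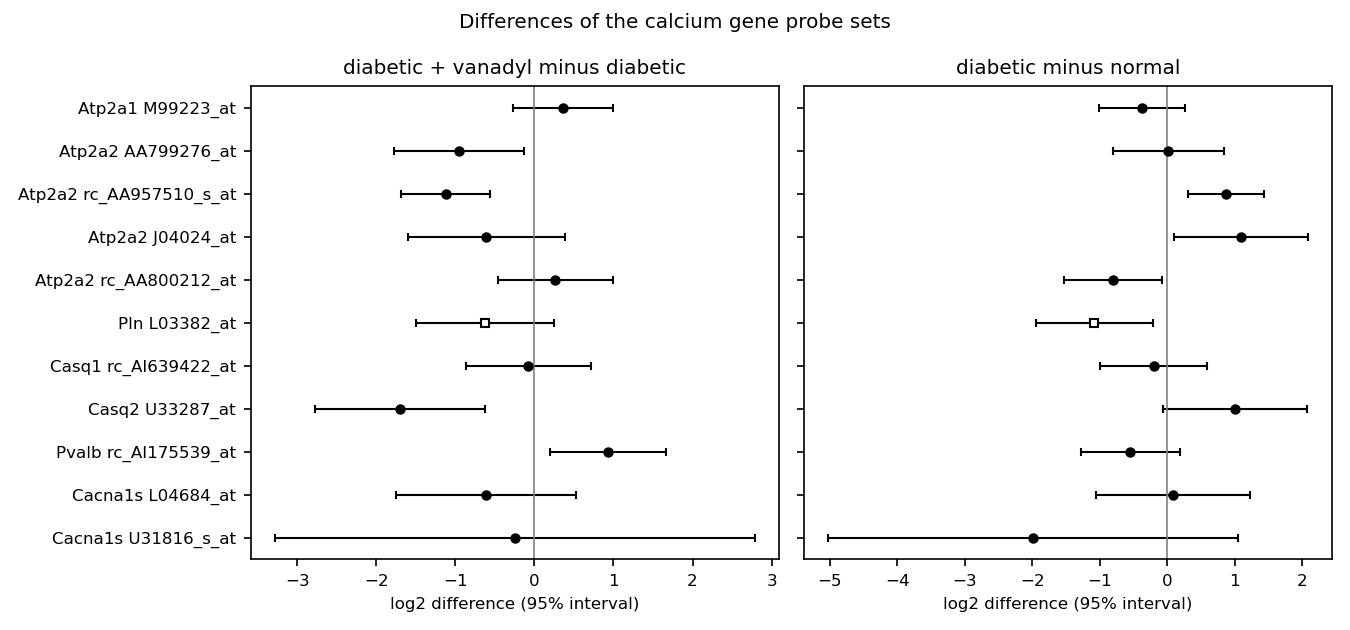
Log2 differences of the 11 probe sets with 95% intervals from limma, for treated against untreated diabetic muscle (left) and untreated diabetic against normal muscle (right), with the open square for Pln from a fit with no filter. No probe set passed at an adjusted p of 0.05. Among the 10 filtered probe sets, 4 intervals on the left and 3 on the right leave out 0.

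The counts of the 10 tested probe sets were read against those over all 6027. At an adjusted p of 0.05, 0 of the 10 passed in each comparison, while 1.83% of all passed for diabetic against normal, 0.498% for treated against untreated diabetic, 0.0664% for treated against untreated normal, 0% for treated diabetic against untreated normal, 0% for treated diabetic against treated normal, and 0.166% for the interaction. At an unadjusted p under 0.05 in limma, 3 of 10 passed for diabetic against normal muscle, 2 higher and 1 lower, beside 16.7% of all. For treated against untreated diabetic muscle it was 4 of 10, 1 higher and 3 lower, beside 16.3%. For treated against untreated normal it was 1, beside 9.23%, for treated diabetic against untreated normal 1, beside 12.8%, for treated diabetic against treated normal 2, beside 17.9%, and for the interaction 3, beside 13.3%.

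The groups did not overlap for 2 of 10 probe sets in treated against untreated diabetic muscle, Casq2 and rc_AA957510_s_at, beside 4.45% of all probe sets. In the other pairs of groups it was 0 of 10, beside 5.09% for diabetic against normal, 1.84% for treated against untreated normal, 0.68% for treated diabetic against untreated normal and 3.22% for treated diabetic against treated normal. The median log2 difference of the 10 was -0.43 for treated against untreated diabetic muscle, with 7 of 10 negative, beside 0.08 over all probe sets. For diabetic against normal muscle it was -0.09, with 5 of 10 negative, beside -0.06. Probe sets of 1 gene share their transcript and are not independent.

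How the calcium genes varied with fibre type was read from contractile genes that hold no member. Under the symbols searched, 5 of 7 slow fibre genes and 8 of 10 fast fibre genes had a tested probe set. A score per array is their mean log2 difference from the normal group. AA799276_at of Atp2a2 followed the slow score over 20 arrays (r 0.899, rho 0.878). Its adjusted permutation p was 7.33e-05 over 22 relations, from the smallest p that the permutations can give. Dropping the 2 arrays with the most extreme scores left r at 0.885, and it was 0.869 with group means removed, so the relation also held within groups. The relation of rc_AA957510_s_at with the slow score was r 0.608 and rho 0.615 (adjusted permutation p 0.0251 and 0.0257), and it no longer passed with group means removed (r 0.512, adjusted permutation p 0.0893) or without the 2 farthest arrays (r 0.556, adjusted permutation p 0.0948). The other 2 Atp2a2 probe sets did not pass: J04024_at had r 0.261 and rho 0.481 (adjusted permutation p 0.459 and 0.147), and rc_AA800212_at had r -0.042 and rho -0.119 (adjusted permutation p 0.872 and 0.71).

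Of the 5 slow genes, 1 fell in treated against untreated diabetic muscle, and all 5 differences were negative. Over all tested probe sets, 0.498% were called and 56.1% were positive in that comparison. Tpm3, listed here as the slow tropomyosin, fell with treatment (log2 difference -1.36 ± 0.30, adjusted p = 0.0471, limma). Its probe set, S82383_s_at, was the dimmest of the 5, and its suffix marks probes that can match more than 1 transcript. Tnni1, the slow troponin I, was at -1.73 ± 0.57 (adjusted p = 0.164, limma). For diabetic against normal muscle Tpm3 was at 1.16 ± 0.30 (adjusted p = 0.0519) and Tnni1 at 0.33 ± 0.57 (adjusted p = 0.808). The 5 slow genes had a median of 0.22 in that comparison, with Tpm3 the highest. The slow genes' summed signal was 41010 to 429595 in treated diabetic, 120852 to 345022 in untreated diabetic, 76069 to 227167 in treated normal and 157817 to 329940 in untreated normal muscle, so every pair of groups overlapped. Whether the Atp2a2 differences go with fibre makeup was not tested beyond these relations.

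Atp2a1 and Pvalb followed the fast score, with r 0.935 and rho 0.931 for Atp2a1 and r 0.924 and rho 0.937 for Pvalb (adjusted permutation p 7.33e-05 for each of these values). Without the 2 farthest arrays r was 0.906 for Atp2a1 and 0.849 for Pvalb. Both relations were lost under quantile normalization, at r 0.426 for Atp2a1 (adjusted permutation p 0.256) and r 0.316 for Pvalb (adjusted permutation p 0.375). Quantile normalization leaves such top-ranked signals little room to vary between arrays. For treated against untreated diabetic muscle the SE went from 0.30 to 0.19 for Atp2a1 and from 0.35 to 0.19 for Pvalb. This loss therefore cannot decide on the 2 relations. Of the 8 fast genes, 7 were positive for treated against untreated diabetic muscle, beside 56.1% of all tested probe sets. For diabetic against normal muscle 0 of 8 were positive, beside 44.9%. Fast genes gave no call: Myh1, the type 2X myosin heavy chain, was at 1.04 ± 0.36 (adjusted p = 0.182) and Tnni2, the fast troponin I, at 0.72 ± 0.30 (adjusted p = 0.248, limma) for treated against untreated diabetic muscle. For diabetic against normal muscle Tnnt3, the fast troponin T, was at -0.56 ± 0.36 (adjusted p = 0.455) and Tnni2 at -0.45 ± 0.30 (adjusted p = 0.465). Casq1 did not follow the fast score (r 0.032, rho 0.289, adjusted permutation p 0.872 and 0.433). Casq2 did not pass with the slow score (r 0.359, rho 0.376, adjusted permutation p 0.237 and 0.281), and its r was 0.019 with group means removed.

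**Figure D5:**
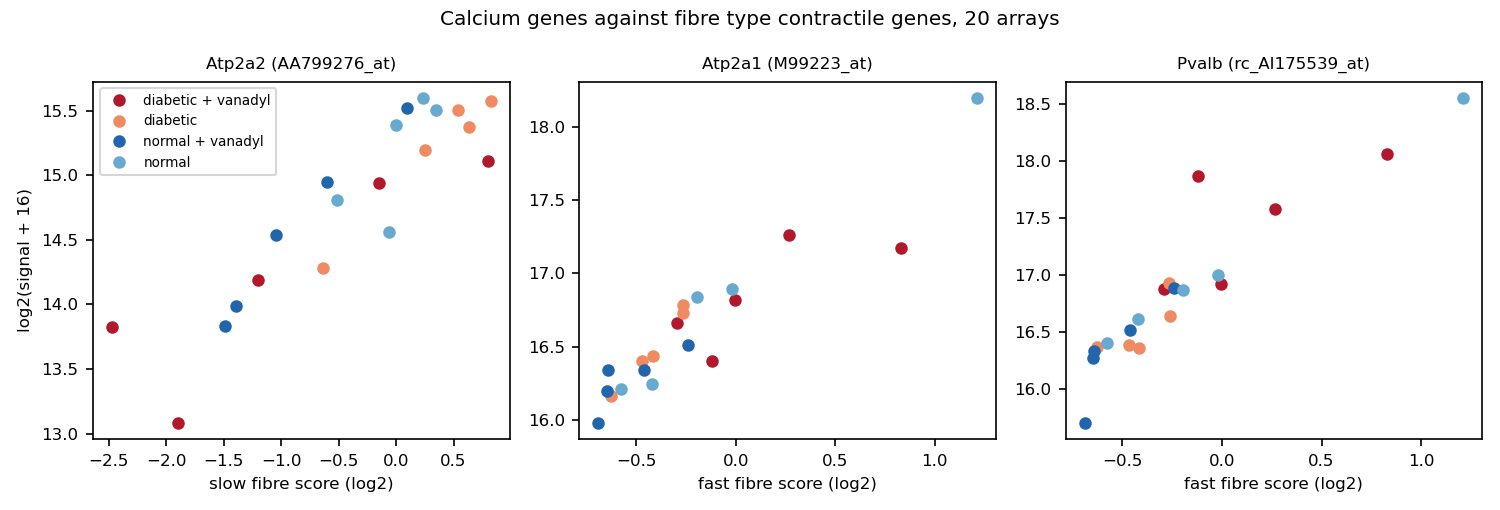
Signal of Atp2a2 (AA799276_at) against the slow fibre score, and of Atp2a1 and Pvalb against the fast fibre score, each as log2(signal + 16), with the score as a log2 difference from the normal group. Points are the 20 arrays, coloured by group. The r are 0.899, 0.935 and 0.924, and the highest fast score is untreated normal replicate 3.

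The genes most like each member over the 20 arrays, among 3576 others, are given as a description. Atp2a2 was closest to the slow genes Tnni1 (r 0.925) and Myh7 (r 0.909), which are part of the slow score. Atp2a1 was closest to Myl11 (r 0.935) and Tnnt3 (r 0.929), and Pvalb to Tnni2 (r 0.985) and Slc25a4 (r 0.97), the mitochondrial ADP/ATP carrier. Tnnt3 and Tnni2 are part of the fast score. Untreated normal replicate 3 had the highest signal of both Atp2a1 and Pvalb, and their likenesses without it were not computed. Casq1 was closest to Selenow (r 0.962) and Atp5f1d (r 0.95), and Cacna1s to Oplah (r 0.952) and Aldh2 (r 0.928). Treated diabetic replicate 5 lay far below every other array for Casq1 (16396) and for Cacna1s (1464). The r of these 2 genes without that array were not computed, so their likenesses may rest largely on it. Casq2 was closest to Pdk4 (r 0.777), the kinase that restrains pyruvate dehydrogenase, and Spp1 (r 0.676), and the dim Pln to Cwc25 (r 0.729) and Cops3 (r 0.72).

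Of 56 further calcium handling genes, 45 had a probe set, 38 were tested and 0 passed in any of the 6 comparisons. They comprise partners of the release channel, surface calcium channels, pumps and exchangers, and calcium-binding proteins. For treated against untreated diabetic muscle 22 of 38 were positive, with 4 at an unadjusted p under 0.05 in limma. Over all tested probe sets, 56.1% were positive and 16.3% had such a p. The smallest p belonged to Asph, which encodes the junctional protein junctin, at 0.62 ± 0.22 (adjusted p = 0.201), the L-type channel Cacna1c at 0.96 ± 0.35 (adjusted p = 0.201) and the plasma membrane calcium pump Atp2b3 at 0.91 ± 0.37 (adjusted p = 0.237). For diabetic against normal muscle 15 of 38 were positive, with 2 at an unadjusted p under 0.05 in limma. Over all tested probe sets it was 44.9% and 16.7%. The 2 genes were the channel subunit Cacnb2 at -0.95 ± 0.40 (adjusted p = 0.23) and the reticulum chaperone Hsp90b1 at -0.56 ± 0.26 (adjusted p = 0.276). Cacna1c followed at -0.68 ± 0.35 (adjusted p = 0.327).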

How the data were processed

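Signal intensities on a linear scale, 1 per probe set and array, are what the authors deposited, and the submitters' processing notes name MAS5, without a version, as the tool. The trimmed mean (2% at each end) lay between 2503.4 and 2506.46 on all 20 arrays, so no further normalization was applied. Of 8799 probe sets, 59 controls were left out and 6027 passed the filter. The platform annotation gave 1 symbol to 7018 probe sets, several to 308, and did not list 1473.

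Group means were fitted to log2(signal + 16) over all 20 arrays with limma 3.58.1 (lmFit, contrasts.fit, eBayes, R 4.3.3), two-sided, with Benjamini-Hochberg adjustment over the 6027. Fits were tested on simulated data. All adjusted p-values of differences come from limma, and those of correlations from two-sided permutation tests with 100000 resamples, adjusted within families of 22, 22 and 7 relations. The number of arrays limits the precision. Same-numbered arrays are not paired by the labels. No 2 arrays shared over 0.0915% of values.

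The members, the marker lists and the wider calcium list were chosen with earlier results of these data known. All member probe sets are described; further genes were named by rule as those with the smallest p per list and the 2 most like each member. The immune, adipocyte and cardiac lists are given as counts and sums, with some genes named after their values were seen. Alternatives covered the pseudocount (1, 256), the filter (none, 50th percentile), quantile normalization, only the groups compared, leaving out arrays, a replicate block, RNA quality covariates and the variance model.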

Additional observations from a re-analysis of the deposited data

Results flagged for a closer look

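In 44 groups of 5 arrays (11 probe sets in 4 groups), 4 held an array whose gap to its nearest neighbour, as a share of the group's log2 range, passed Dixon's 95% critical value of 0.71. Chance alone gives about 1 in 20 groups. Treated diabetic replicate 5 was low for Casq1, at 16396 against 83112 to 105254 on the other 4 arrays (share 0.873), and for Cacna1s (L04684_at), at 1464 against 14203 to 23326 (share 0.82). Treated normal replicate 4 was low for the Atp2a2 probe set J04024_at, at 153 against 566 to 786 (share 0.795). Untreated normal replicate 3 was high for Pvalb, at 385906 against 86682 to 131481 (share 0.721).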

How the results depend on the processing

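No calcium gene probe set passed with a pseudocount of 1, no filter, the stricter filter, quantile normalization, only the groups compared, either RNA quality covariate fit, omission of diabetic replicates 1 and 3, or the replicate block. Instead of 0, 1 passed for treated against untreated diabetic muscle with a larger pseudocount or a trended, robust variance, and 0 to 1 when 1 array was left out. Without the 3 arrays of high Gapdh ratio, 1 passed for diabetic against normal and 1 for treated diabetic against untreated normal muscle, and Pln, in a fit with no filter, was at -1.90 for the second. Of 22 fibre relations 4 passed, and 2 under quantile normalization.

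Signs turned mostly for small values. Atp2a2 AA799276_at, diabetic against normal, was -0.016 under quantile normalization, -0.18 without diabetic replicates 1 and 3, and -0.14 to 0.24 with 1 array left out. Cacna1s L04684_at in the same comparison was -0.080 when the Gapdh ratio was a covariate, -0.50 without the 3 arrays, and -0.15 to 0.31 with 1 left out, and for treated against untreated diabetic muscle -0.89 to 0.10. In that comparison, quantile normalization gave -0.16 for Atp2a1 (interaction -0.063), Casq1 ran from -0.24 to 0.43 with 1 array left out, and U31816_s_at was 0.99 with the Gapdh ratio, 0.57 with both ratios, and -1.13 to 0.30 with 1 left out. The cause was not tested.

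The replicate block changed no call of a calcium gene (0 in each comparison). Over all probe sets it gave 106 for diabetic against normal (110 without it) and 39 for treated against untreated diabetic (30), 0 for treated against untreated normal (4), 16 for treated diabetic against treated normal (0) and 6 for the interaction (10). Of 30 same-numbered pairs, 11 had correlated deviations over 0.1 (range -0.28 to 0.62), and 6 of 20 arrays correlated best with their own number. No count for differently numbered pairs is given, so these values cannot decide whether the numbers mark pairs. The labels state no pairing, and the numbers are not taken as pairs. Over all alternatives the counts were 3 to 464 for diabetic against normal, 1 to 59 for treated against untreated diabetic, 0 to 6 for treated against untreated normal (main 4), 0 to 359 for treated diabetic against untreated normal (0), 0 to 109 for treated diabetic against treated normal (0) and 1 to 22 for the interaction (10). Quantile normalization moved the median of all probe sets to 0.03 for treated against untreated normal (0.18 as deposited), 0.04 for treated diabetic against treated normal (-0.15) and 0.01 for the interaction (-0.13).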
